A study of Mus musculus with 6 samples.

Results

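Of 69349 distinct 20-base signatures counted in 6 mouse libraries, 751 were present at 10 CPM or more in each of 3 libraries of BLK.CL4 and were never counted in any of 3 libraries of liver. These 751 signatures, called the members here, were selected on their measured levels: the counts of the 4 runs of a library were summed, a signature missing from a library was given a count of 0, and CPM is that sum divided by the library's summed counts and multiplied by 1e+06. The contrast between BLK.CL4 and liver therefore chose them and is described without a test. BLK.CL4 is a line of embryonic mouse fibroblasts of the C57BL/6 strain. The labels give C57BL6 as the strain and total RNA from the NHGRI as the source of every library. No treatment, age, sex or culture condition was given for either group, and nothing in them tells whether libraries of the same group are separate cultures, separate animals or repeats of 1 RNA. P-values given here thus measure variation among these particular libraries, and that variation can be purely technical. A line is a single cultured population, whereas liver is a tissue of hepatocytes with vessel, immune and stromal cells. The labelled identity of the RNA could not be checked against marker genes, because the signatures carry no gene names.

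In massively parallel signature sequencing (MPSS), cDNA is cut by DpnII, which recognises GATC, and the short stretch beside the last such cut before the poly(A) end is cloned, amplified onto microbeads and read on the beads by rounds of enzymatic cleavage and ligation. A transcript is thus represented by 1 short tag, and the number of beads with that tag is the measure of its abundance, which does not scale with transcript length. Levels and ranks of different signatures are set side by side here as counted, although many signatures were counted in only some of the runs, as given below, and their summed level then rests on part of the library's counts. Fibroblasts are known for making collagens, other matrix proteins and contractile filaments, and cultured lines also express genes of cell division, while hepatocytes are known for secreting plasma proteins. Each library was read in runs of 2 types, headed T and TH, with 2 runs of each, and the column headings do not say how the types differ.

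The 10 members with the highest mean level are shown first because they held 29.3%, 32.3% and 26.7% of the member counts of BLK.CL4 replicates 1, 2 and 3 (29.4% ± 2.80, SD, n = 3). The DpnII site is in capitals.

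member 1: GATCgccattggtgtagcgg
member 2: GATCtattgaaagtcagccc
member 3: GATCttccctgttggctgtg
member 4: GATCagcgcctccagttcct
member 5: GATCtacaatgaagctctga
member 6: GATCgcctgcacatcagccc
member 7: GATCctaccgctgtgactgc
member 8: GATCtcagactatgtagata
member 9: GATCcaggacccagggaggt
member 10: GATCttggctggaaggcagt

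BLK.CL4 libraries held 1890287 to 2187783 counts, from runs of 409273 to 578350, and those of liver 1724799 to 2440849. A level of 10 CPM amounted to 18.9 to 21.9 counts in BLK.CL4. For a count of 0, a limit of 3 counts per library was set, which amounted to 1.49 CPM on average in liver. It is a rough limit and not a maximum. Such limits cover counting error only, since beads carry amplified molecules. CPM was also not rescaled between the groups. TMM factors, which rescale library totals, were 1.61 to 1.72 in BLK.CL4 and 0.475 to 0.743 in liver, so levels of the groups lack a common scale. With these factors 515 signatures met the rule. Liver libraries listed 8621 to 17721 signatures, and those of BLK.CL4 19686 to 31506. As RNA of bulk samples was measured, fewer cells of a type and less RNA per cell cannot be told apart.

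Being without a liver count was uncommon among signatures at this BLK.CL4 level: 4138 signatures reached 10 CPM in all 3 BLK.CL4 libraries, of which the members were 18.1%, and the other 3387 are the comparison set used below. The share without a liver count was lower at higher levels. It was 29.3% at a mean of 10 to 20 CPM (65 of 222), 23.2% at 20 to 50 CPM (325 of 1401), 16.8% at 50 to 100 CPM (189 of 1128), 12.9% at 100 to 1000 CPM (160 of 1244) and 8.39% at 1000 CPM or more (12 of 143). The rule used these values, and nothing is read from their order.

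The members made up 8.72%, 11.0% and 7.72% of the counts of BLK.CL4 replicates 1, 2 and 3 (9.15% ± 1.69, SD, n = 3), against 73.5% ± 6.76 for the comparison set. They took few of the top ranks. The highest-ranking member stood at rank 16, 3 and 27 of all signatures of replicates 1, 2 and 3, and 5, 11 and 6 members were among the 100 most abundant signatures. The median member stood at 43.4, 50.2 and 40.7 CPM, and the median rank at 3020, 2878 and 3222.

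Member counts were concentrated in few signatures. A total of 44, 35 and 55 members held 50% of the member counts of replicates 1, 2 and 3. In the larger comparison set, 123, 160 and 125 signatures held 50% of its counts. The 10 most abundant members of each library held 29.6% to 33.4% of member counts, and the 10 most abundant comparison signatures 11.0% to 14.2% of theirs. The sets differ in size (751 and 3387), which bears on both measures, so neither shows that the members were the more concentrated set. At the other end, the 65 members with a mean of 10 to 20 CPM held 1.24% of member counts, and the 325 members at 20 to 50 CPM held 12.0%.

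**Figure D1:**
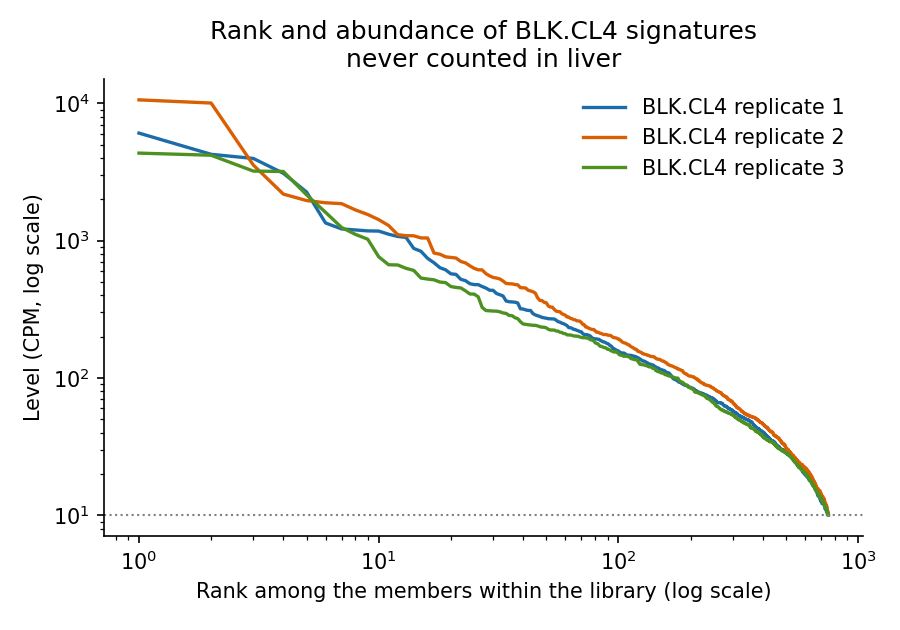
Level of each member in CPM (log scale) against its rank among the members of the same library (log scale), with 1 line per BLK.CL4 replicate and the 10 CPM limit of the rule as a dotted line. The highest level was 6077, 10615 and 4345 CPM in replicates 1, 2 and 3, and the lines lie close together over the lower ranks.

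Member 1 stood at 6077, 10615 and 4345 CPM in replicates 1, 2 and 3 (7012 ± 3238 CPM, SD, n = 3) and was the most abundant of the set in all 3. Member 2 stood at 3972, 10064 and 285 CPM. It was close to member 1 in replicate 2 and far below it in replicate 3, where it ranked 491 among all signatures, against 6 in replicate 2. Member 3, at 4259, 3555 and 4193 CPM, was nearly even over the libraries (CV, the SD as a percent of the mean, 9.71%). The distance between members thus differed by library: members 1 and 3 lay at 4345 and 4193 CPM in replicate 3, and at 10615 and 3555 CPM in replicate 2.

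Members 4 and 5 stood at 3100, 1861 and 3214 CPM and at 2264, 2185 and 3193 CPM, so that their ranges overlapped and their order was not settled. Member 6 was higher in replicate 3, at 2158 CPM, than in replicates 1 and 2, at 1056 and 1087 CPM. The next members overlapped as well. Member 7 stood at 1218, 1889 and 666 CPM, member 8 at 1346, 1675 and 525 CPM, and member 9 at 1175, 1552 and 763 CPM, each highest in replicate 2 and lowest in replicate 3. Member 10 stood at 1115, 1086 and 1248 CPM (CV 7.55%) and was instead highest in replicate 3.

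Over all members, the median CV over the 3 BLK.CL4 libraries was 45.5%, from 1.75% to 133%, and the median ratio of the highest to the lowest library was 2.49. The comparison set had a median CV of 43.8% and a median ratio of 2.41, both slightly below the values of the members. Counting error alone would give a median CV of 10.1% in the members, and 33 of 751 lay below their own counting CV. A ratio over 5 was found for 92 members (12.3%, against 10.8% of the comparison set) and over 10 for 11. Because the rule asks for 10 CPM in every library, members just above it can vary less: the median CV was 33.0% at a mean of 10 to 20 CPM, 51.5% at 50 to 100 CPM and 38.8% at 1000 CPM or more.

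**Figure D2:**
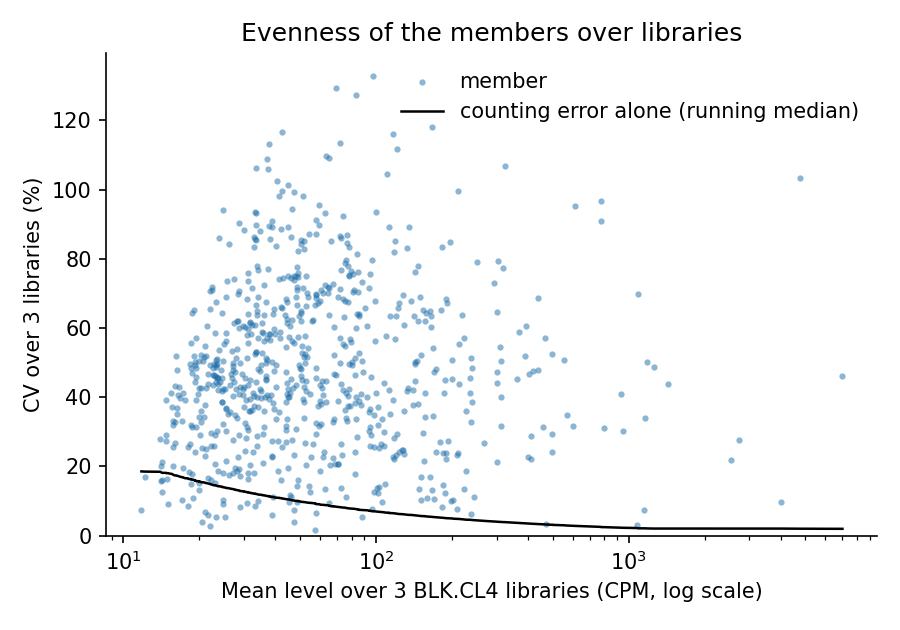
CV of each member over the 3 BLK.CL4 libraries (percent) against its mean level (CPM, log scale), with the running median of the CV that counting error alone gives as a line. Most members lie above the line, and 33 of 751 lie below their own counting CV.

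The libraries did not contribute alike. Replicate 2 held the highest level of 327 members (43.5%), against 34.7% of the comparison set, and replicate 3 the lowest level of 303 members (40.3%, against 31.9%). Replicate 2 was also the library with the most listed signatures (31506, against 19686 and 23955 in replicates 1 and 3). The part of this in the members' pattern was not tested. Across members, levels on the log2(CPM + 5) scale correlated at Pearson r = 0.745 between replicates 1 and 2, 0.723 between 1 and 3 and 0.621 between 2 and 3 (n = 751 signatures, which share their libraries and are not replicates). In the comparison set these values were 0.797, 0.833 and 0.720.

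Among the 172 members with a mean of 100 CPM or more, the most even and least even were taken to show the extremes.

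most even 1: GATCctccgtacacagaatt
most even 2: GATCcgttctggaaacacac
most even 3: GATCaccatctagtgagtcg
least even 1: GATCttcgacacagagaaag
least even 2: GATCtgcctctatccaaccc
least even 3: GATCtgttcagcacacctga

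The most even stood at 1073, 1048 and 1111 CPM in replicates 1, 2 and 3 (CV 2.97%, against 2.13% from counting error). The next stood at 479, 479 and 453 CPM, and the last of them at 221, 244 and 247 CPM. All 417, 501 and 541 counts of the last came from T runs. The least even stood at 80.9, 26.8 and 390 CPM and was highest in replicate 3. It too had no TH count, and 153, 55 and 854 T counts, so both extremes held a member counted in T runs only. It differs by G19A from a more abundant signature with levels of 3548, 2438 and 2770 CPM, which was also counted in liver. The other two least even signatures were highest in replicate 2, at 41.3, 272 and 35.7 CPM and at 30.7, 278 and 56.2 CPM. The highest ratio of all members, 57.7, belonged to gatctattgaaagtcagccA, a signature that differs from member 2 by C20A (positions run from 1 at the 5′ base, and the letter before the position is that of the more abundant signature) and stood at 878, 1423 and 24.7 CPM.

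Levels ran on across both limits of the rule. The lowest level of any member in a library was 19 counts (10.1 CPM) in replicate 1, shared by 5 members, of which 3 stood at 41.4, 20.0 and 31.2 CPM in replicate 2 and at 22.4, 17.8 and 29.3 CPM in replicate 3. Just outside, 11 signatures without a liver count had 20 counts (9.75 CPM) in replicate 2, and 3 of these had 60.8, 37.0 and 41.8 CPM in replicate 1 and 10.5, 16.5 and 80.9 CPM in replicate 3. In all, 41 members had their lowest level at 10 to 11 CPM, and 46 further signatures without a liver count had theirs at 9 to 10 CPM. On the liver side, 50, 61 and 43 signatures met the BLK.CL4 limit and had 1, 2 or 3 liver counts in all. The 3 most abundant with 1 liver count stood at 132, 124 and 111 CPM on average in BLK.CL4, with that count in liver replicate 3, 2 and 1, respectively.

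To read the same measures in libraries that the choice had not used, the rule was applied to 2 BLK.CL4 and 2 liver libraries and the signatures so chosen (1150 to 1593) were looked up in the libraries left out. Of these, 67.5% to 69.6% reached 10 CPM in BLK.CL4 replicate 1, 73.1% to 74.4% in replicate 2 and 68.4% to 72.0% in replicate 3. The background share, over signatures at 10 CPM in the same 2 BLK.CL4 libraries that were counted in the same 2 liver libraries, was higher at 86.0% to 87.6%. This background was not matched for level, and the part of level in the difference was not tested. Of the chosen signatures, 86.1% to 88.3% were counted at all in the BLK.CL4 library left out. With 1 library left out, and the rule thus less strict, it chose 1128 signatures without BLK.CL4 replicate 1. It chose 1111 without BLK.CL4 replicate 3 and 1109 without liver replicate 3. Only the first was over 1.5 times the number of members, and narrowly.

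A count of 0 recurred in 89.7% to 90.0% of them in liver replicate 1, 77.3% to 78.1% in replicate 2 and 68.0% to 72.1% in replicate 3. Of all signatures at 10 CPM in the same 2 BLK.CL4 libraries, whatever their liver counts, 52.0% to 54.0%, 38.3% to 38.8% and 31.4% to 33.7% had no count in the liver library left out. In the liver library left out, 31 to 35 signatures reached 10 CPM in replicate 1, 64 to 75 in replicate 2 and 145 to 177 in replicate 3. A signature without a count in 2 liver libraries could thus be well counted in the remaining one. Liver replicates 1, 2 and 3 held 1724799, 2004290 and 2440849 counts, and the part of depth in the order of these shares was not tested.

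**Figure D3:**
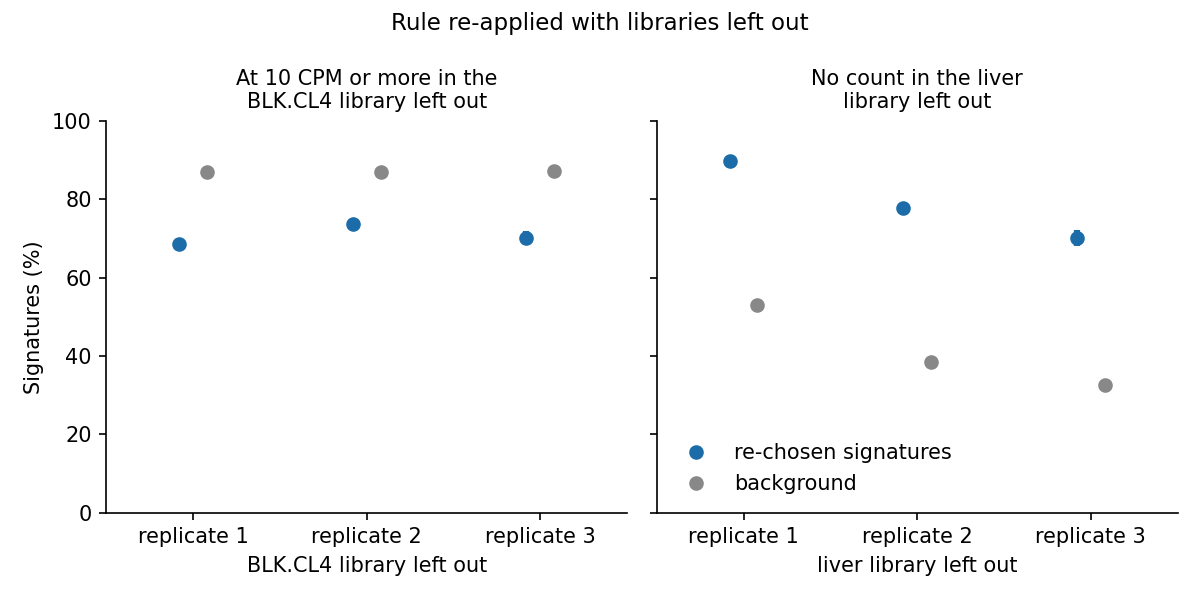
Share of signatures (percent), chosen by the rule on 2 BLK.CL4 and 2 liver libraries, that met the rule in the BLK.CL4 library (left) or liver library (right) left out. Background shares are in grey. They are over signatures counted in the 2 liver libraries (left) and over all signatures at 10 CPM in the 2 BLK.CL4 libraries (right). Points are the middle and bars the range over the choice of the library left out of the other group; 67.5% to 74.4% kept the BLK.CL4 level and 68.0% to 90.0% had no count in the liver library.

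Support from the run types was uneven. In the 12 BLK.CL4 runs, 160 members (21.3%) were counted in all 12, against 34.0% of the comparison set, and 100 (13.3%) in 5 or fewer, against 4.07%. A total of 517 members were counted in both types, 126 (16.8%) had no count in any T run and 108 (14.4%) none in any TH run. In the comparison set 13.5% and 11.2% lacked T and TH counts. Members counted in 1 type held 21.4% of the member counts, and the corresponding share of the comparison set was 13.0%. The members also had lower levels: their median was 40.7 to 50.2 CPM, against 65.3 to 66.7 CPM in the comparison set. At like levels the share counted in 1 type was 43.1% of members and 46.5% of the comparison set at 10 to 20 CPM. It was 35.7% and 34.2% at 20 to 50 CPM, the band with most members, and 28.0% and 22.5% at 50 to 100 CPM. At 100 to 1000 CPM it was 21.9% and 15.9%, and at 1000 CPM or more 16.7% (of 12 members) and 10.7%.

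**Figure D4:**
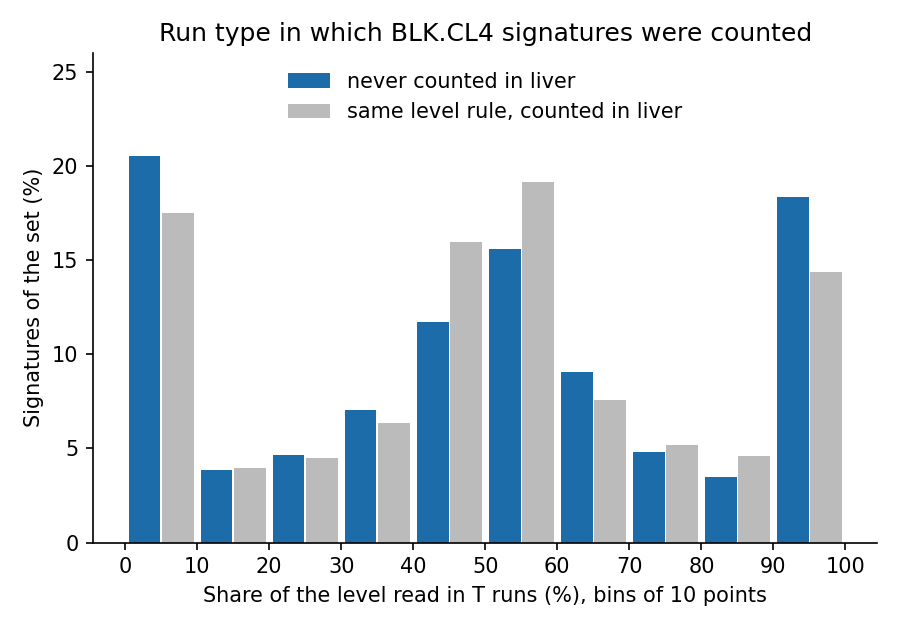
Percent of members (blue) and of the comparison set counted in liver (grey) by the share of their BLK.CL4 level that was read in T runs, in bins of 10 points. Of the members, 20.5% lie below 10% and 18.4% at 90% or more, against 17.5% and 14.4% of the comparison set, with a further peak at 50% to 60%.

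Members 1 to 4, 7, 9 and 10 were counted in both types in every BLK.CL4 library, with 35.9% to 57.9% of their level in T runs. Member 5 lay mostly in T runs, with 12802 T and 2946 TH counts. Member 6 had 1997, 2230 and 4721 T counts in replicates 1, 2 and 3 and no TH count. Member 8 was the reverse, with no T count and 2545, 3436 and 1149 TH counts. The level of members 6 and 8 thus rests on 6 of the 12 runs.

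Run-to-run agreement was within type. Across members, runs of the same type in a library correlated at r = 0.639 to 0.872, and runs of different types at -0.098 to 0.118 (n = 751 signatures, which share the library, so this is a description). The rule chose members on the sum of both types, which bears on the correlation between types, and its part was not tested. No such values are given for the comparison set, so they are not shown to be particular to the members. The members' share of counts nevertheless was similar in sum: 9.20%, 10.7% and 8.32% in T runs and 8.34%, 11.4% and 7.14% in TH runs of replicates 1, 2 and 3. The T value was higher in replicates 1 and 3 and lower in replicate 2. The mean difference was 0.460 points ± 0.984 (SD, n = 3), with p = 0.5 in an exact two-sided permutation test of sign flips, for which 0.25 is the smallest p that 3 libraries allow. All T and TH runs of replicate 3 were made on 1 day, and those of replicate 2 on different days. For replicate 1, where the T runs shared a day with 1 of the TH runs, the shares on that day were 9.20% and 7.70%.

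No member was called different between the run types in the test across signatures. edgeR's quasi-likelihood test, with library as a block and Benjamini-Hochberg adjustment over 6803 signatures, called 0 of 751 members higher in T runs, where the background over all signatures was 0%, and 0 higher in TH runs, where it was also 0% (lowest adjusted p of any member 0.162). At an unadjusted p under 0.05, 305 members (40.6%) differed, 149 higher in T and 156 higher in TH, against a background of 29.2% of all signatures tested and 40.0% of the comparison set. DESeq2 called 170 members higher in T and 190 higher in TH, where its background was 17.9% and 19.5% of all signatures. edgeR without the library term called 128 and 135, with 12.6% and 13.9% of all signatures as background. The number of calls therefore depended on the test and its design, and a count of 0 does not show that levels were alike in the 2 types.

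Members without a count in 1 type often held a 4-base palindrome, a stretch equal to its own reverse complement, at particular positions. These positions (3, 7, 11 and 15 for T runs, and 4, 8, 12 and 16 for TH runs) were chosen after the data were seen. The capitals below mark the palindrome at such a position, in members with no T count or with no TH count.

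no T count, palindrome at position 7: gatcagTTAAttattccatt
no TH count, palindrome at position 8: gatcgccTGCAcatcagccc
no TH count, palindrome at position 12: gatcctggtaaTGCActttg
no TH count, palindrome at position 12: gatcctgaccaCATGaacaa
no TH count, palindrome at position 4: gatCCGGaccaagccaccac

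The member shown without a T count had 410, 1180 and 257 TH counts in replicates 1, 2 and 3. Of 83 members with a palindrome at the T positions, 62.7% had no T count, against 11.1% of the other 668. Of 88 members with one at the TH positions, 69.3% had no TH count, against 7.09% of the other 663. In the comparison set the shares were 63.7% and 8.34% for T and 65.8% and 5.90% for TH, close to those of the members. Palindromes did not cover all cases: 74 members with no T count and 47 with no TH count held none at those positions, among them member 8 and gatcgctggacaggtggctg, which had 824, 603 and 1014 T counts and no TH count. Gatcctttggaccgggcctt has palindromes at positions 12 and 15 and was counted in both types, at 435 T and 853 TH counts.

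Some members differed from another member at only 1 base, and whether 1 transcript stands behind both was not tested. There were 33 such pairs, holding 60 members in 29 groups. Of these pairs 30 (90.9%) differed at position 20, the last base, and the remaining 3 at positions 15 and 19. Among pairs of all signatures at 10 CPM or more in the BLK.CL4 libraries, members included, the share at position 20 was 75.7% (309 pairs). In the comparison set alone it was 76.5% (226 pairs). Among pairs of all signatures listed in BLK.CL4, with no limit on level, it was 44.7% (13154 pairs). The 5 pairs with the highest level of their fainter signature are given with the differing base in capitals.

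member 1, brighter: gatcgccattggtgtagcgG
G20A variant of member 1: gatcgccattggtgtagcgA
member 2, brighter: gatctattgaaagtcagccC
C20A variant of member 2: gatctattgaaagtcagccA
C20T variant of member 2: gatctattgaaagtcagccT
brighter of the last pair: gatctcaaagccctgcccaA
A20C variant of it: gatctcaaagccctgcccaC

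The variants of member 2 also form a pair with each other (A20T), the fourth of the 5. The G20A variant of member 1 stood at 1198, 1106 and 495 CPM and had no T count and 5617 TH counts, whereas member 1 had 24654 T and 18115 TH counts. The C20A variant of member 2 followed it, at 878, 1423 and 24.7 CPM against 3972, 10064 and 285 CPM, and both were lowest in replicate 3. The C20T variant stood at 435, 485 and 35.7 CPM. In the last pair, the brighter signature had 2769 T and 714 TH counts and the fainter 56 T and 1359 TH counts, so they lay mostly in opposite run types.

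In 18 of the 30 position-20 pairs of members (60.0%), 1 member had over and the other under 50% of its level in T runs, against 71.1% of 173 such pairs in the comparison set. The T shares were 50 points or more apart in 17 pairs (56.7%, against 67.1%). A member without a T count was part of 19 pairs (63.3%, against 66.5%), and 1 without a TH count of 2 pairs (6.67%, against 8.09%). These shares of the member pairs lay at or below those of the comparison set.

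A position-20 variant with a mean of at least 10% of their own was found for 44 of the 126 members with no T count (34.9%), 16 of the 108 with no TH count (14.8%) and 101 of the 517 counted in both types (19.5%). The comparison set had such variants for 38.0%, 12.1% and 13.1% of these classes. Counting only variants that reached 10% in the run type that was missing, 31 members with no T count and 12 with no TH count had one, while 46 and 36 had neither such a variant nor a palindrome at the positions given above.

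**Figure D5:**
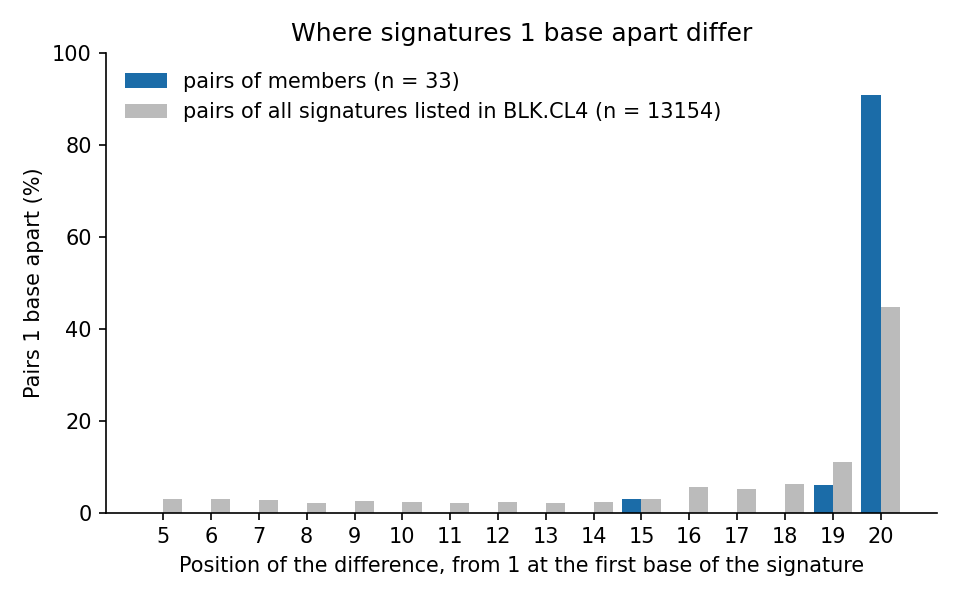
Position at which pairs of signatures 1 base apart differ (positions 5 to 20, from 1 at the first base), as percent of the 33 pairs of members (blue) and of 13154 pairs of all signatures listed in BLK.CL4 (grey). Position 20 holds 90.9% of the member pairs and 44.7% of all pairs, which have no limit on level. In the comparison set, which met the same BLK.CL4 limit, it holds 76.5% of 226 pairs (not shown).

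For some members only the last base set them apart from signatures of liver. A variant at position 20 was counted in liver for 55 members (7.32%), which held 3.96% of member counts; the variants summed to 3 liver counts or fewer for 10 of them and to more than 100 for 6. With a difference at any position after GATC, 83 members (11.1%) had a signature 1 base away that was counted in liver. For 16 members such a signature reached 10 CPM or more in all 3 liver libraries. Not all of these members were faint. One stood at 778 CPM on average in BLK.CL4 and differs by C19A from a signature at 462 CPM in liver. Another, gatcgctggacaggtggctg, stood at 398 CPM and differs by A19T from a signature at 257 CPM in liver. Among the position-20 cases, the clearest are members that were faint beside a variant abundant in both groups.

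member: gatctgaaggtggaattgtG
its variant counted in liver: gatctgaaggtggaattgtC
member: gatcctgtacagccagtgtT
its variant counted in liver: gatcctgtacagccagtgtG

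The first member stood at 22.2, 11.7 and 12.8 CPM in BLK.CL4, with its variant (C20G from variant to member) at 2066, 1226 and 2620 CPM there. Liver held that variant at 335, 165 and 357 CPM. The second stood at 63.0, 27.3 and 11.4 CPM, with its variant (G20T) at 4706, 2704 and 4269 CPM. Liver held this one at 219, 169 and 325 CPM. When signatures were merged on their first 19 bases, 692 groups met the rule. In all, 73 members (9.72%) had a signature 1 base away that was more abundant in BLK.CL4, against 6.47% of the comparison set.

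The base content of the members lay close to that of the other sets. Over the 16 bases after GATC the members held 24.8% A, 26.4% C, 24.6% G and 24.2% T. G or C made up 50.9% ± 13.1 of a signature (SD over 751 signatures), against 50.3% in the comparison set, 49.8% in the mirror set of 535 signatures at 10 CPM or more in all liver libraries and never counted in BLK.CL4, and 49.0% over all listed signatures. Weighted by level, the members' G or C content was 51.5%, 51.3% and 52.2% in replicates 1, 2 and 3 (51.6% ± 0.477, SD, n = 3), and 51.1% ± 0.603 in the comparison set. The extremes were a T-rich signature of 6.25% and a C-rich one of 93.75%.

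lowest G or C content: GATCtttgtttttttttttt
highest G or C content: GATCcccagccgcccccccc

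The T-rich signature stood at 226, 705 and 37.0 CPM, highest in replicate 2, and had 967 T and 988 TH counts. The C-rich signature stood at 143, 125 and 53.9 CPM with 646 TH counts and no T count. A CG dinucleotide was present in 35.2% of members, 33.6% of the comparison set, 29.2% of the mirror set and 30.3% of all signatures. Single positions departed more than the whole. T at position 20 made up 23.8% of members, against 30.3% of the comparison set and 30.9% of all signatures, and A at position 5, the first base after the site, 28.8% against 22.8% and 24.2%. The gap at position 20 was the largest of 64 between members and comparison set, but gaps of like size lay elsewhere. T at position 9 made up 21.8% of members and 28.2% of the comparison set. For C at position 5 the shares were 34.1% and 40.2%. All these examples were picked after the values were seen.

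No transcript sequences were used, so members were not assigned to genes. As a partial check, members were searched in 32851 RefSeq promoter windows of GRCm38.p6 (250 bases before to 50 after each gene start), where a match would not show that the gene is the source. Of 751 members, 5 (0.666%) matched exactly on either strand, against 0.645% of all listed signatures. One lay in the sense direction in the window of Usp19, a deubiquitinating enzyme, at 56.1 CPM on average. Another lay antisense in that of Pbrm1, a subunit of a chromatin remodelling complex, at 18.0 CPM. The others lay in windows of predicted genes, 1 of them in 4 windows including that of Aif1, a calcium-binding protein of macrophages. The member matching Aif1 differs by T9A from a brighter signature, with a BLK.CL4 mean of 2885 CPM. The liver mean of that signature was 486 CPM. The member in the window of Gm41890 differs by G14A from a signature with a liver mean of 95.8 CPM. The matches to Usp19, Pbrm1 and Aif1 lay before the gene start, at positions -209, -174 and -239 from it. These matches were singled out after they were seen. No member matched within the 2743 miRNA sequences searched.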

How the data were processed

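MPSS counts of 3 BLK.CL4 and 3 liver libraries were used. Per the file headers, the authors deposited raw bead counts, 1 whole number per signature and run; per the labels, RNA was cut as cDNA with DpnII and signatures of 20 bp were cloned. Base calling and any filter before deposit are not given in the sources used here, and a signature not listed was set to 0. For every library the labels state more beads than the summed counts hold. Whether signatures set to 0 in liver were among the missing beads is not known. The 4 runs were summed and divided by the library's summed counts to give CPM; depth was 1724799 to 2440849 counts per library.

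The members and lists were chosen with earlier results of these data known. Named are the 10 members of highest mean CPM, the 3 most and 3 least even of those at 100 CPM or more, 3 signatures just inside and outside each limit (of ties, the first in alphabetical order), and the 5 pairs 1 base apart with the brightest fainter signature; none passed the run-type test, so none is named for it. Palindrome positions, liver variants, base extremes and single-type examples were singled out after their values were seen.

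T and TH runs were compared with edgeR 4.0.16 in R 4.3.3 (glmQLFit, glmQLFTest, two-sided, library as a block, TMM factors, adjusted p threshold 0.05) on 6803 signatures at 10 CPM or more in 2 or more BLK.CL4 libraries. The script was tested on simulated counts drawn with the same dispersion for all signatures. It called 52.7% of the 16-fold and 100% of the 256-fold differences put in, with 2.67 false calls on average. The simulated libraries differed only in depth. These shares therefore test the script and do not give the share of differences found in the real counts. DESeq2 1.42.0 was an alternative. Other values used Python 3.11.15, pandas 2.3.3, numpy 2.4.6 and scipy 1.17.1. Other CPM limits, liver counts, scalings, run types, merged signatures and left-out libraries were tried. Sequences are those of the deposited files; gene names come only from RefSeq windows.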

Additional observations from a re-analysis of the deposited data

How the results depend on the processing

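The number of members was 751, and 515 (TMM factors) to 1112 (5 CPM) under the alternatives that kept all libraries, apart from 455 at 20 CPM. It was 846 to 1128 with each library left out in turn, the highest without BLK.CL4 replicate 1 (the rule then asks for 1 library fewer). The members' share of BLK.CL4 counts was 9.15%, but 12.7% in T runs only and 13.2% with signatures seen in at least 2 runs, and 9.29% to 11.9% with each library left out. T runs alone chose 928 signatures, 495 of them members, and TH runs alone 762, of which 505 were members; 260 were chosen by both. Members called higher in T and TH runs numbered 0 and 0, but 170 and 190 with DESeq2 and 128 and 135 with no replicate block (library as the block that pairs the run types); the cause was not tested. All other settings gave 0, including each BLK.CL4 library left out (0 to 0). The T minus TH share stayed above 0, at 0.0993 to 1.02 points with each BLK.CL4 library left out. Merging on 19 bases, same-day runs and members counted in both types were chosen after seeing the data. Depth limits levels under 1.23 to 1.74 CPM.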
